A study of Mus musculus with 12 samples.

Results

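Trophic and growth factor ligands are secreted or membrane-shed proteins through which a cell supports, attracts or expands its neighbours. The transcripts examined here were Csf1, Il34, Igf1, Vegfa, Pdgfa, Hbegf, Bdnf, Tgfb1, Cntf and Gdnf, chosen by name as ligands of this kind. Of these 10 genes, 8 had a value among the 16389 genes of the deposited table, while Cntf and Gdnf were not analysed here. Sorted eGFP+ cells came from male Aldh1l1-EGFP mice, a transgenic line kept on a Swiss Webster background in which the promoter of the astrocyte enzyme gene Aldh1l1 drives eGFP. A full transection (FT) or a lateral hemisection (HS) of the thoracic cord was made at 12 weeks of age, and the tissue around the lesion was taken 1 or 2 weeks later. Non-injured controls (NI) of the same line gave the matching piece of cord. There was 1 library of FT 1 week, 3 of FT 2 weeks, 3 of HS 1 week, 2 of HS 2 weeks and 3 of NI. More mice than libraries were used in each group, so that a library probably held cells of several animals, and p-values measure only the spread between these 12 libraries. The FT 1 week group is a single library, so that its injury and that library cannot be told apart, and its standard errors are taken from the other groups.

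CSF1 and IL-34 are the ligands of CSF1R, the receptor on which microglia depend for survival and division. IGF-1, BDNF and HB-EGF support neurons and glia through receptor tyrosine kinases, VEGF-A acts on vessels, PDGF-A drives division of oligodendrocyte progenitors, and TGF-beta 1 is a latent factor that is released from the matrix and restrains inflammation. After spinal cord injury, reactive astrocytes near the lesion form a border around infiltrating immune cells and fibroblasts, and microglia multiply beside them.

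Values are normalized counts, that is reads per gene divided by 1 factor per library, and 1 read was worth 0.0612 to 0.134 normalized counts. The libraries held 8270643 to 15562378 reads with a median of 12876651. The labelled cell type was present but not alone: all 20 astrocyte markers were above 0 in every library and summed to 2576 to 15042 normalized counts, whereas 12 oligodendrocyte markers, also all above 0, summed to 54621 to 113028. Within HS 1 week alone the astrocyte sum ran from 2576 to 15042 and the oligodendrocyte progenitor sum from 201 to 1126. Markers of other cell types also differed widely between libraries of 1 group, and 3 such types are given here. The microglia and macrophage sum (17 markers) was 15076 in FT 1 week, 2104 to 3831 in FT 2 weeks, 1282 to 17420 in HS 1 week, 18892 and 3053 in HS 2 weeks, and 1285 to 10252 in NI. The pericyte and fibroblast sum (8 of 9 markers measured, none at 0) was 871 in FT 1 week, 6002 to 11579 in FT 2 weeks, 154 to 2305 in HS 1 week, 1369 and 4611 in HS 2 weeks, and 459 to 7005 in NI, where replicate 1 alone held the highest value. The neutrophil and eosinophil sum (7 of 8 measured) was 25.7 to 1157 in the 9 injured libraries and 376 to 6150 in NI. In such bulk libraries, fewer cells of a type and less RNA per cell cannot be told apart.

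Promoter windows are printed for 3 genes, namely Csf1, the only one of these ligands that passed the test, Igf1, which had the widest range among those of moderate level, and Vegfa, which had the most negative fitted changes. Each line gives the 250 bases before a RefSeq transcription start of the gene in GRCm38.p6, read 5′ to 3′ on the strand of the gene. A gene can have several such starts. The Igf1 start used lies inside the annotated gene, which begins at chr10:87858265. Capitals mark an NF-kappaB site (GGG and TTTCC parted by any 2 bases) in Csf1 at chr3:107760470-107760719 on the minus strand. They mark an AP-1 site (TGANTCA) in Igf1 at chr10:87860861-87861110 on the plus strand, and GC boxes (GGGCGG) in Vegfa at chr17:46032378-46032627 on the minus strand.
Csf1: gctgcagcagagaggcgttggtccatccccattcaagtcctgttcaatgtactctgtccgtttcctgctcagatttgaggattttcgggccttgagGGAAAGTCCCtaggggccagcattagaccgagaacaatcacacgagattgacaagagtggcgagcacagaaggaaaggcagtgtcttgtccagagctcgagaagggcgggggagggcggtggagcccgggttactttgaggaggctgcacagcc
Igf1: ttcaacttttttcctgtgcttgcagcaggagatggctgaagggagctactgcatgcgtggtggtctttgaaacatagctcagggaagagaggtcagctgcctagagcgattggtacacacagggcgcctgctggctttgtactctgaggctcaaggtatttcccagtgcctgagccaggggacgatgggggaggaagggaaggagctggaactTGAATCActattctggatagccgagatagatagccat
Vegfa: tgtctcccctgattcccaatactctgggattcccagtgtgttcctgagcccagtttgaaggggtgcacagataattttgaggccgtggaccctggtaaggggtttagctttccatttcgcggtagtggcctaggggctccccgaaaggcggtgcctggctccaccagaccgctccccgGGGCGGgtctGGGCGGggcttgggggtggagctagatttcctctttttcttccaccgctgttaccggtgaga
Both strands were searched, the 3 motifs do not overlap each other in these windows, and they were picked after the letters had been seen. The NF-kappaB letters begin 154 bases before the Csf1 start and occur in 1.41% of the 32851 windows of this length. The AP-1 letters begin 37 bases before the Igf1 start used and occur in 6.75%. The GC box occurs in 32.7%, and the Csf1 window also holds it at 51 and 41 bases before the start, in lower case. For the 6 ligand genes with an entry, 14 windows were searched, of which 1 held the NF-kappaB letters (7.14%), 2 the AP-1 letters (14.3%) and 8 the GC box (57.1%). Other motifs were searched as well. The STAT site (TTCNNNGAA) was in 7.14% of the ligand windows, beside 7.02% of all windows, and the TATA box (TATAAA) in 0%, beside 12.4%. The hypoxia response element core (ACGTG) was in 21.4%, beside 16.6%, including a Vegfa window that is not printed. Windows of 1 gene can overlap and are not independent. A match of letters is a description of the sequence and does not show that a factor binds there.

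Csf1 was higher after injury in every library. It measured 159 normalized counts in FT 1 week and 172, 136 and 176 in FT 2 weeks. It was at 147, 169 and 188 in HS 1 week and 242 and 175 in HS 2 weeks, against 90.3, 57.5 and 63.6 in NI. The lowest injured library (136) lay above the highest NI library (90.3), so the groups did not overlap. Only 323 of the 16388 genes tested, 1.97%, had all 9 injured libraries above all NI libraries. The mean of the 4 injured groups was 2.47-fold that of NI, a log2 fold change of 1.30 (SE 0.18, limma adjusted p = 0.0168), with a 95% interval of 0.90 to 1.71. Csf1 was the 1 ligand of 8 that was called in this comparison, which needs a size of 2-fold or more besides an adjusted p below 0.05. Of all genes, 0.293% were called and 0.256% were called higher.

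Taken group by group, the fitted Csf1 values were near each other after both lesions and at both times. The log2 fold change against NI was 1.19 in FT 1 week (SE 0.31, adjusted p = 0.158), 1.20 in FT 2 weeks (SE 0.22, adjusted p = 0.122), 1.26 in HS 1 week (SE 0.22, adjusted p = 0.116) and 1.56 in HS 2 weeks (SE 0.24, adjusted p = 0.0981). None of these 4 passed limma's adjusted threshold, although each had an unadjusted p under 0.05. On the reads recovered from the table, edgeR's likelihood ratio test called Csf1 in FT 2 weeks (adjusted p = 0.0101), HS 1 week (adjusted p = 0.00976) and HS 2 weeks (adjusted p = 0.000748) but not in FT 1 week (adjusted p = 0.0996). By contrast, edgeR's quasi-likelihood test called it only for the mean of the injured groups (adjusted p = 0.0409). Csf1 differences among the injured groups, by lesion, by time and in the interaction of both, were between -0.36 and 0.30 on the log2 scale with adjusted p of at least 0.898. The call for the mean of the injured groups was lost without NI replicate 2 (1.17, adjusted p = 0.127) or NI replicate 3 (1.24, adjusted p = 0.134). This was not particular to Csf1, since the calls of all genes fell from 48 to 1 and 2 in these fits. The Csf1 call was kept when NI replicate 1 or an injured library with replicates was left out.

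With the log2 microglia and macrophage sum as a covariate the Csf1 log2 fold change for the mean of the injured groups was 1.30 (adjusted p = 0.00155), and with the pericyte and fibroblast sum it was 1.30 (adjusted p = 0.00288). These fits called 4.5% and 2.53% of all genes, against 0.293% in the main fit. The smaller adjusted p was therefore not particular to Csf1. For the same mean, some markers of 3 other cell types were called. Of the mast cell markers 2 of 8 were called higher (sum of 21.5 to 346 in injured libraries and 8.49 to 51.8 in NI, with Mcpt4 and Tpsb2 at 0 in some libraries), and of the neuron markers 2 of 11, Tubb3 (log2 fold change 2.33) and Eno2 (1.63). These 2 genes lead the neuron sum (165 to 393 in injured libraries and 86.7 to 222 in NI), whereas the other 9 had values below 0 and the list median was -0.31. Of the neutrophil and eosinophil markers 2 of 7 were called lower. The shifts reached beyond the called genes: all 8 mast cell markers had values above 0 (list median 1.90) and all 7 neutrophil and eosinophil markers below 0 (-4.28). All 8 oligodendrocyte progenitor markers also had values below 0 (-1.16), with 0 called. The part of these cell types in the Csf1 result was not tested.

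**Figure D1:**
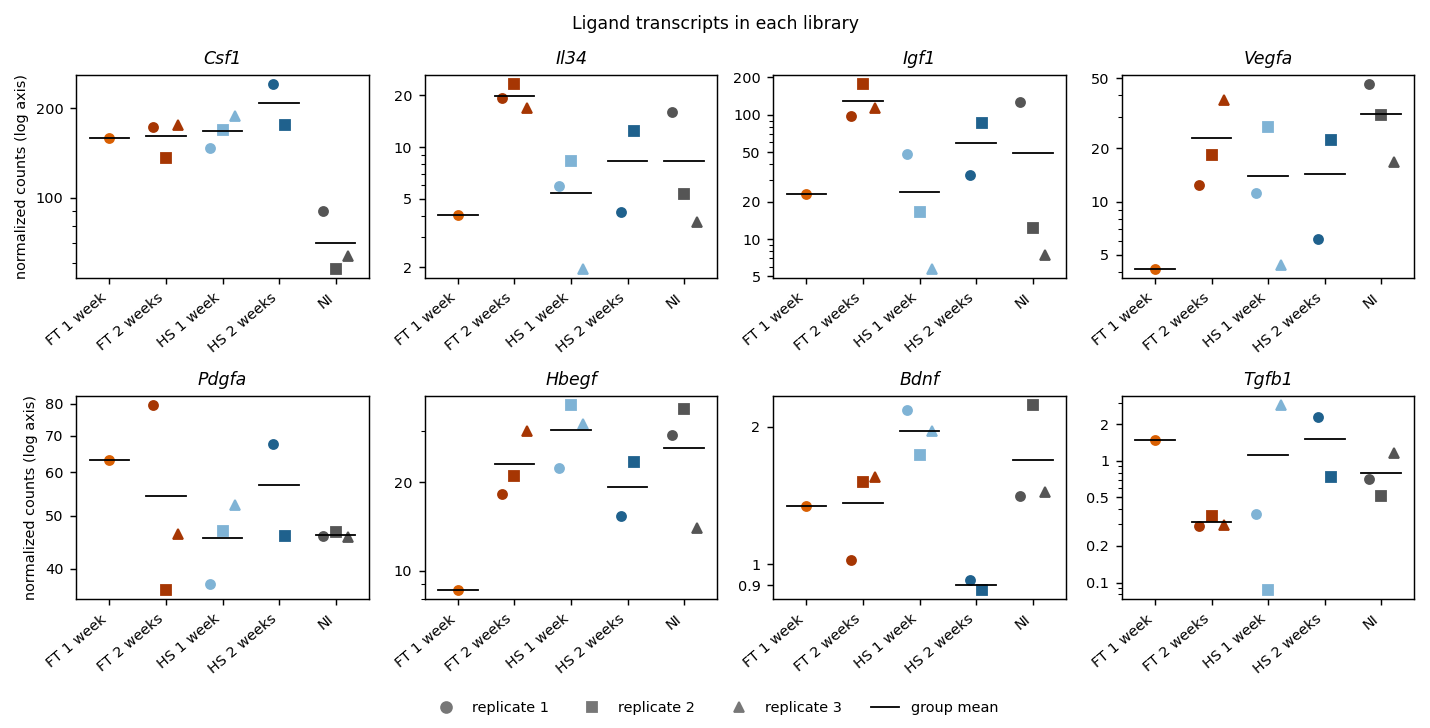
Normalized counts (log axis, with its own range in each panel) of the 8 ligand transcripts in each of the 12 libraries, grouped as FT 1 week, FT 2 weeks, HS 1 week, HS 2 weeks and NI; symbols give the replicate number and bars the group mean. Every injured library of Csf1 lies above the 3 NI libraries, whereas the NI libraries of Igf1 span 7.49 to 127 and overlap those of HS.

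Il34 encodes the second ligand of CSF1R. Its level was 4.03 normalized counts in FT 1 week and 19.2, 23.3 and 16.8 in FT 2 weeks. It was at 5.94, 8.24 and 1.96 in HS 1 week and 4.20 and 12.5 in HS 2 weeks, against 15.9, 5.36 and 3.67 in NI. FT 2 weeks was the highest group, and its 3 libraries lay above all libraries of the other groups. How many genes do so was not counted, but 6.92% of all genes lay wholly above NI and 11% wholly above HS 2 weeks. The log2 fold change of FT 2 weeks against NI was 1.38 (SE 0.56, adjusted p = 0.428), against FT 1 week 2.04 (SE 0.79, adjusted p = 0.472) and against HS 2 weeks 1.30 (SE 0.62, adjusted p = 0.962), none of which passed. In the remaining groups the means of HS 2 weeks (8.33), NI (8.30), HS 1 week (5.38) and FT 1 week (4.03) followed each other with overlapping libraries. The interaction of time and lesion was 1.49 (SE 1.01, adjusted p = 0.807) for Il34.

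Igf1 had the widest range of the 6 ligands with a mean of at least 10 normalized counts, 30.9-fold between the lowest and the highest library. It stood at 23.1 normalized counts in FT 1 week and 98.2, 178 and 114 in FT 2 weeks. It was at 48.9, 16.6 and 5.75 in HS 1 week and 33.0 and 86.6 in HS 2 weeks, against 127, 12.3 and 7.49 in NI. All libraries of FT 2 weeks exceeded those of the other injured groups, but NI replicate 1 lay between them. Against HS 2 weeks alone, 11% of all genes lay wholly above in this way. The log2 fold change of FT 2 weeks against NI was 2.38 (SE 0.96, adjusted p = 0.428), and without NI replicate 1 it was 3.58 (adjusted p = 0.0346), which would pass the call. Without that library 2.78% of all genes were called in this comparison, beside 0.0427% with it. The other fitted differences of Igf1 above 1 in size were 2.40 for FT 2 weeks against FT 1 week (SE 1.35, adjusted p = 0.665), 1.59 for HS 2 weeks against HS 1 week (SE 1.07, adjusted p near 1.00), 1.22 for FT 2 weeks against HS 2 weeks (SE 1.07, adjusted p = 0.962) and 1.16 for HS 2 weeks against NI (SE 1.07, adjusted p = 0.877).

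Igf1 and Il34 moved with the transcripts of another cell type. The 6 libraries with the most Igf1 were the 6 libraries with the highest pericyte and fibroblast sum, among them NI replicate 1 at a sum of 7005, and the 5 libraries with the most Il34 were the 5 with the highest sum. Decorin (Dcn), a matrix proteoglycan of fibroblasts and the leading gene of that sum, was at 586 normalized counts in FT 1 week, 4185 to 8846 in FT 2 weeks, 81.8 to 1579 in HS 1 week, and 929 and 3071 in HS 2 weeks, against 277 to 5140 in NI. With the log2 pericyte and fibroblast sum in the model, the Igf1 difference between FT 2 weeks and FT 1 week turned to -0.17, that between FT 2 weeks and HS 2 weeks to -0.14, and that between FT 2 weeks and NI came to 0.25 (adjusted p = 0.893). Whether sorted cells of that type, or free RNA from them, gave these reads was not tested.

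**Figure D2:**
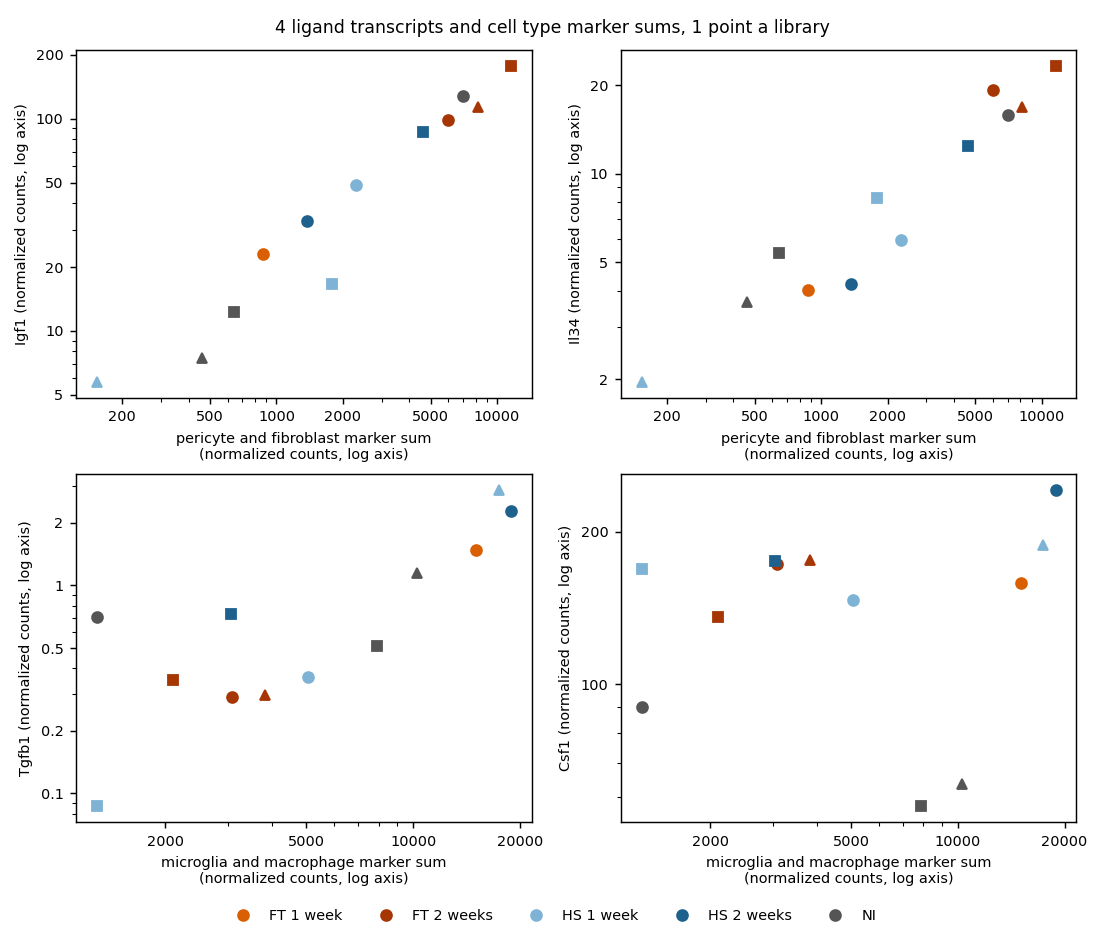
Normalized counts of Igf1, Il34, Tgfb1 and Csf1 in each of the 12 libraries (vertical, log axes) set against the summed normalized counts of pericyte and fibroblast or of microglia and macrophage markers (horizontal, log axes); colour gives the group and symbol shape the replicate. Igf1 and Il34 increase along the pericyte and fibroblast sum with NI replicate 1 among the FT 2 weeks libraries, while the 3 NI libraries are the lowest of Csf1 at sums of 1285 to 10252.

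Vegfa, the angiogenic factor of the hypoxia response, had its highest group mean in NI, with no change that passed the test. Its level was 4.16 normalized counts in FT 1 week and 12.5, 18.3 and 37.7 in FT 2 weeks. It was at 11.2, 26.5 and 4.40 in HS 1 week and 6.12 and 22.4 in HS 2 weeks, against 46.4, 30.8 and 16.7 in NI. The NI mean was 31.3 and FT 1 week was lowest, but only FT 1 week lay below all NI libraries, as 30.1% of all genes did there. The mean of the injured groups gave a log2 fold change of -1.38 (SE 0.55, adjusted p = 0.304) and FT 1 week one of -2.53 (SE 0.93, adjusted p = 0.341), neither of which passed. The corresponding values were -1.30 in HS 1 week (SE 0.66, adjusted p = 0.671), -1.21 in HS 2 weeks (SE 0.74, adjusted p = 0.760) and -0.47 in FT 2 weeks. Vegfa in FT 2 weeks against FT 1 week differed by 2.06 (SE 0.93, adjusted p = 0.543), in FT 1 week against HS 1 week by -1.24 (SE 0.93, adjusted p near 1.00), and in the interaction by 1.98 (SE 1.19, adjusted p = 0.772). The FT 1 week library and 2 others of its 4 lowest libraries, HS 1 week replicate 3 and HS 2 weeks replicate 1, were also among the 4 with the lowest astrocyte sum. Over 29 alternatives the Vegfa change for the mean of the injured groups was between -1.76 and -1.04, and 4 of them called it. These were array quality weights (-1.28, adjusted p = 0.0435), the microglia and macrophage sum as a covariate (-1.16, adjusted p = 0.0464), the pericyte and fibroblast sum (-1.64, adjusted p = 0.0333) and the astrocyte sum, added after the values were seen (-1.44, adjusted p = 0.0209). Of all genes, these settings called 7.32%, 4.5%, 2.53% and 2.22% in that order, beside 0.293% in the main fit.

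Hbegf encodes a ligand of the EGF receptor that is shed from the cell surface. It was measured at 8.60 normalized counts in FT 1 week and 18.3, 21.0 and 29.8 in FT 2 weeks. It was at 22.3, 36.7 and 31.6 in HS 1 week and 15.3 and 23.4 in HS 2 weeks, against 29.1, 35.5 and 14.0 in NI. Only the FT 1 week library stood apart, below all others. That library lay below all NI libraries for 30.1% of all genes. Its log2 fold change was -1.41 against NI (SE 0.50, adjusted p = 0.318) and -1.67 against HS 1 week (SE 0.50, adjusted p = 0.431). Hbegf in FT 2 weeks against FT 1 week differed by 1.29 (SE 0.50, adjusted p = 0.470), and the interaction was 1.91 (SE 0.64, adjusted p = 0.567), so that all of its values of this size involve the same single library and none passed. Its 4 lowest libraries shared 3 with the 4 lowest astrocyte sums, and this link was not tested.

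Pdgfa, the ligand through which astrocytes keep oligodendrocyte progenitors dividing, was the steadiest ligand. Its level was 63.1 normalized counts in FT 1 week and 79.7, 36.6 and 46.4 in FT 2 weeks. It was at 37.5, 46.8 and 52.3 in HS 1 week and 67.7 and 45.9 in HS 2 weeks, against 45.9, 46.8 and 45.8 in NI. The 12 libraries spread over 2.18-fold, and the injured groups lay on both sides of the NI libraries. Its log2 fold changes against NI ran between -0.03 and 0.44, with a 95% interval of -0.30 to 0.72 for the mean of the injured groups. Of its exonic bases, 26.1% lie under 6330403L08Rik on the other strand, and as the SMARTer and Nextera chemistry named in the labels does not keep the strand, reads of these genes cannot be told apart there.

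Bdnf and Tgfb1 were close to the detection limit. Bdnf, the neurotrophin that signals through TrkB (Ntrk2), measured 1.34 normalized counts in FT 1 week and 1.02, 1.51 and 1.56 in FT 2 weeks. It was at 2.18, 1.73 and 1.96 in HS 1 week and 0.925 and 0.879 in HS 2 weeks, against 1.41, 2.23 and 1.44 in NI, which is 10 to 35 reads per library. HS 2 weeks was lowest, below both NI (as were 11.6% of all genes) and HS 1 week (6.72%) in all libraries. The log2 difference was -0.49 from NI (SE 0.22, adjusted p = 0.654) and -0.63 from HS 1 week (SE 0.22, adjusted p near 1.00), on a scale that understates changes of low genes, and 14.4% of the Bdnf exonic bases lie under Gm45346 on the other strand. Tgfb1 measured 1.48 normalized counts in FT 1 week and 0.292, 0.350 and 0.297 in FT 2 weeks. It was at 0.364, 0.0867 and 2.88 in HS 1 week and 2.28 and 0.733 in HS 2 weeks, against 0.707, 0.511 and 1.15 in NI. These are 1 to 47 reads, and FT 2 weeks with 3 or 4 reads per library lay below every NI library (7.99% of all genes did). The 4 libraries with the most Tgfb1 were the 4 with the highest microglia and macrophage sum (FT 1 week, HS 1 week replicate 3, HS 2 weeks replicate 1 and NI replicate 3). Its log2 fold changes against NI were -0.43 to 0.48, and its interaction was -1.33 (SE 0.75, adjusted p = 0.770), with the part of the microglial reads not tested.

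Across the 8 ligands, few calls were made, as among all genes. Limma called 0 of 8 ligands in FT 1 week against NI, where 0.452% of all genes were called, 0 in FT 2 weeks (0.0427%), 0 in HS 1 week (0.0061%) and 0 in HS 2 weeks (0.0122%). At an unadjusted p under 0.05 there were 3 of 8 in FT 1 week (11.2% of all genes), 3 in FT 2 weeks (10.8%), 1 in HS 1 week (7.66%) and 2 in HS 2 weeks (7.49%). The likelihood ratio test called Csf1 in FT 2 weeks (1.71% of all genes called), HS 1 week (0.433%) and HS 2 weeks (0.488%) and 0 ligands in FT 1 week (1.67%). DESeq2 also called Csf1 in FT 2 weeks (2.03%), HS 1 week (0.513%) and HS 2 weeks (0.69%) and 0 ligands in FT 1 week (2.26%). The quasi-likelihood test called 0 ligands in FT 1 week (0.427%), FT 2 weeks (0.0244%), HS 1 week (0.0061%) and HS 2 weeks (0.0122%). For the mean of the injured groups each of them called Csf1 alone of the ligands, beside 3.69% of all genes by the likelihood ratio test, 3.31% by DESeq2 and 0.195% by the quasi-likelihood test. The median log2 fold change of the 8 ligands for the mean of the injured groups was 0.10, beside -0.03 for all 16388 genes.

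Ligands that did not overlap between groups have to be read against how often any gene did so. In FT 1 week, Csf1, Pdgfa and Tgfb1 lay above all NI libraries (27.2% of all genes did) and Bdnf, Vegfa and Hbegf below (30.1%). In FT 2 weeks, Csf1 and Il34 lay above (6.92%) and Tgfb1 below (7.99%). In HS 1 week, Csf1 alone lay above (7.31%) and 0 ligands below (5.02%). In HS 2 weeks Csf1 lay above (12.9%) and Bdnf below (11.6%). Csf1 is thus the only ligand on the same side of NI in all 4 injured groups without overlap.

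**Figure D3:**
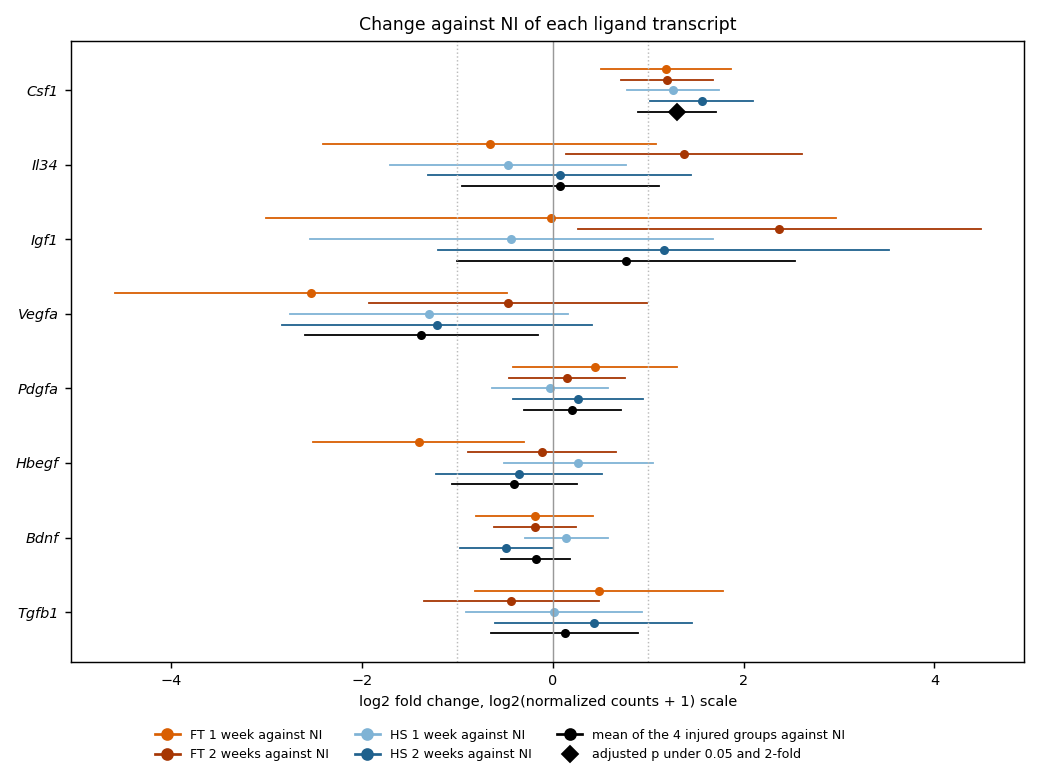
Log2 fold change against NI (horizontal, on the log2 scale of normalized counts plus 1) of the 8 ligand transcripts in FT 1 week, FT 2 weeks, HS 1 week, HS 2 weeks and the mean of the 4 injured groups; points are fitted values, lines are 95% intervals, dotted lines mark 2-fold, and the diamond marks the value that passed the call. All 5 Csf1 intervals lie above 0, whereas those of Igf1, Il34 and Vegfa are wide and most cross 0.

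Between the lesions and between the times, none of the 8 ligands was called by limma. This held for FT 1 week against HS 1 week (0.348% of all genes called), FT 2 weeks against HS 2 weeks (0%), HS 2 weeks against HS 1 week (0%), FT 2 weeks against FT 1 week (0.384%) and the interaction (0.0854%). At an unadjusted p under 0.05 the counts were 1, 0, 1, 3 and 1 of 8, in the order just given, beside 5.64%, 2.26%, 1.62%, 9.17% and 7.04% of all genes. The 3 in FT 2 weeks against FT 1 week were Il34, Vegfa and Hbegf, each higher at 2 weeks, and all 3 rest on the single FT 1 week library. In FT 2 weeks against HS 2 weeks, Bdnf, Igf1 and Il34 lay wholly above (11% of all genes did) and Tgfb1 wholly below (10.1%), and in HS 2 weeks against HS 1 week Bdnf lay wholly below (6.72%) and 0 ligands wholly above (5.76%).

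Per kilobase of exon, the order of the ligands differed between injured and NI libraries. Csf1 was first in each of the 4 injured groups, with a mean of 32.9 normalized counts per kilobase over the 9 injured libraries (25.7 to 45.8) and 13.3 over the NI libraries (10.9 to 17.1). In NI, Pdgfa was first with 14.8 (14.7 to 15.0). Pdgfa was second in each injured group. Bdnf and Tgfb1 were the lowest pair in every group, at 0.234 and 0.193 normalized counts per kilobase over the injured libraries and 0.273 and 0.157 in NI. The genes lie on different chromosomes of GRCm38. Csf1 lies on chr3:107741048-107760469 (minus), Il34 on chr8:110741829-110805924 (minus), Igf1 on chr10:87858265-87937042 (plus), Vegfa on chr17:46016993-46032369 (minus), Pdgfa on chr5:138976014-138997370 (minus), Bdnf on chr2:109674700-109727007 (plus) and Tgfb1 on chr7:25687002-25705077 (plus). In the GENCODE M21 gene models, no exonic base of Csf1, Igf1, Vegfa, Hbegf or Tgfb1 overlaps another annotated gene. Whether overlap affected the reads of these 5 in the deposited counts was not tested.

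The other genes of the ligands' pathways were examined as 9 lists of receptors, related ligands, binding proteins and transducers, of which 94 of 106 genes were tested. For the mean of the 4 injured groups limma called 1 higher, Stat3, and 0 lower, with 12 of 94 (12.8%) at an unadjusted p under 0.05, beside 13.9% of all genes. Stat3, the transcription factor that transmits gp130 cytokine signals such as that of CNTF, measured 339 normalized counts in FT 1 week and 318, 238 and 246 in FT 2 weeks. It was at 278, 318 and 240 in HS 1 week and 301 and 290 in HS 2 weeks, against 150, 124 and 113 in NI. All injured libraries exceeded all NI libraries, as they did for Csf1. Its log2 fold change was 1.19 (SE 0.16, adjusted p = 0.0151). It was 0.98, short of 2-fold, when all libraries were rescaled to the same total. Its call was lost without NI replicate 2 (adjusted p = 0.0984) or NI replicate 3 (adjusted p = 0.127), fits that called 1 and 2 of all genes, against 48. Under that rescaling the median of all genes stood at -0.20 in this comparison, against -0.03 without it, and Csf1 was called at 1.10.

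No other listed gene passed in any of the 10 comparisons by limma. All 9 injured libraries lay above all NI libraries for 3 of the 94 genes, Stat3, Sort1 and Egf, and below them for 0, beside 1.97% of all genes above and 0.995% below. Sort1, the sortilin gene, whose product binds neurotrophins and their precursors and which had the highest level of that list, measured 330 to 504 normalized counts in injured libraries and 248 to 313 in NI (log2 fold change 0.57, SE 0.17, adjusted p = 0.195). Stat3 and Sort1 apart, the gene of highest level in each list overlapped between the groups. Ncam1, an adhesion molecule that also binds GDNF, measured 932 to 1558 in injured libraries and 711 to 1206 in NI. Cd9, a tetraspanin that associates with HB-EGF, measured 834 to 1775 in injured libraries and 449 to 1273 in NI. Csf1r, the receptor of CSF1 and IL-34 and itself one of the microglial markers, measured 94.9 to 2326 in injured libraries and 91.7 to 1021 in NI, with a log2 fold change of 0.13 (adjusted p = 0.970). Tgfbi, a matrix protein induced by TGF-beta, measured 41.6 to 713 in injured libraries and 70.2 to 625 in NI. These 4 genes had changes of 0.13 to 0.58 on the log2 scale. Igf1r, the IGF-1 receptor, measured 34.4 to 55.2 in injured libraries and 50.6 to 56.2 in NI. Pdgfra, the PDGF-A receptor and a marker of oligodendrocyte progenitors, measured 24.6 to 123 in injured libraries and 61.0 to 133 in NI. Hif1a, the hypoxia-inducible factor upstream of Vegfa, measured 58.0 to 124 in injured libraries and 49.4 to 77.1 in NI. Of the receptors at a lower rank in their lists, Ntrk2 measured 30.9 to 229 in injured libraries and 78.6 to 183 in NI, and Nrp1, a co-receptor of VEGF-A, 29.3 to 135 in injured libraries and 26.8 to 55.6 in NI (log2 fold change 1.12, adjusted p = 0.222).

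The likelihood ratio test called 4 further listed genes against NI, which are named after their values were seen. Ngfr, the low-affinity neurotrophin receptor p75 and also a Schwann cell marker, measured 8.46 normalized counts in FT 1 week and 62.1, 38.2 and 36.1 in FT 2 weeks. It was at 20.0, 13.3 and 10.4 in HS 1 week and 35.2 and 35.4 in HS 2 weeks, against 15.6, 3.89 and 8.06 in NI. Both groups at 2 weeks lay above NI in all libraries, as did 6.92% of all genes in FT 2 weeks and 12.9% in HS 2 weeks. Limma gave 2.32 in FT 2 weeks (SE 0.41, adjusted p = 0.119) and 2.01 in HS 2 weeks (SE 0.46, adjusted p = 0.438). The likelihood ratio test gave an adjusted p of 0.00114 in FT 2 weeks and 0.0390 in HS 2 weeks. The Schwann cell sum, of which Ngfr is 1 of 6 genes, was 752 to 1229 in injured libraries and 491 to 1318 in NI. Most of that sum is Pmp22, at 578 to 1114 in injured libraries and 447 to 1226 in NI, so it says little of the other genes. The part of Schwann cells in the Ngfr values was not tested. Egf, a ligand of the same receptor as Hbegf, measured 2.43 to 5.48 in injured libraries and 1.44 to 1.57 in NI, with a log2 fold change of 1.07 in FT 2 weeks (limma adjusted p = 0.315, likelihood ratio adjusted p = 0.0296). The likelihood ratio test also called Egf for the mean of the injured groups (adjusted p = 0.0109). Its own log2 fold changes were 1.55 in FT 2 weeks and 1.41 for the mean. Limma gave Egf 0.99 for the mean, short of 2-fold (adjusted p = 0.113). Igfbp3, which binds IGF-1, gave -1.32 in FT 2 weeks (limma adjusted p = 0.293, likelihood ratio adjusted p = 0.0218) at no more than 3.83 normalized counts in any library. Ptprz1, a phosphatase that also binds IL-34, gave -2.39 in the single FT 1 week library (limma adjusted p = 0.0545, likelihood ratio adjusted p = 0.00692), a value that 11 of 29 alternatives called. For the mean of the injured groups it gave -1.13 (limma adjusted p = 0.118, likelihood ratio adjusted p = 0.00919). Ptprz1 measured 22.4 normalized counts in FT 1 week, against 97.8 to 149 in NI. The oligodendrocyte progenitor sum (8 markers) was lowest of the 12 libraries in FT 1 week, at 131 against 252 to 935 in NI, and the astrocyte sum there was 3987 against 2872 to 8470 in NI. Their part in the Ptprz1 values was not tested. These 4 calls depend on the tool.

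**Figure D4:**
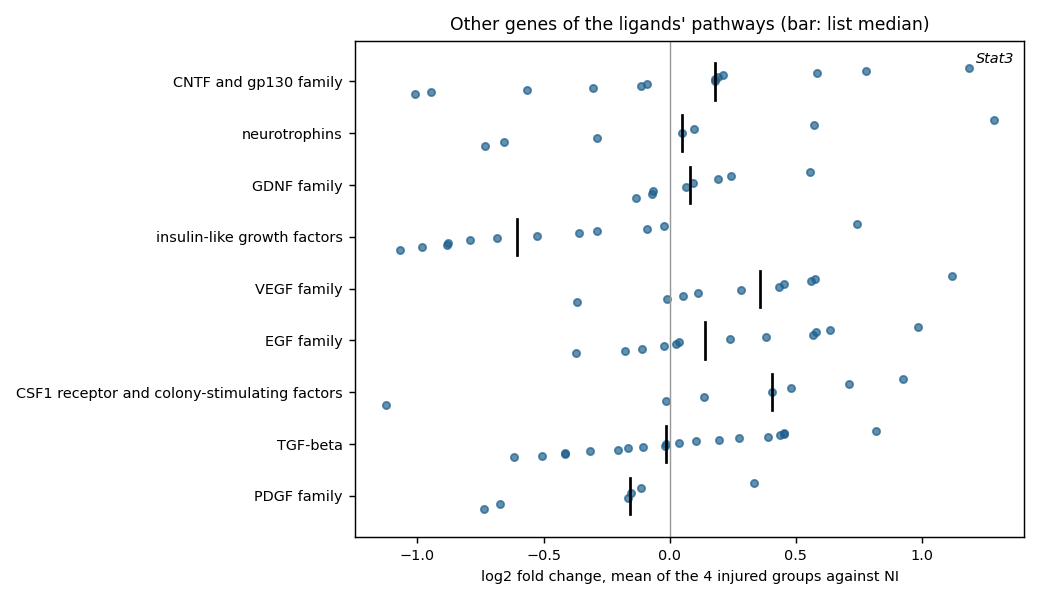
Log2 fold change of the mean of the 4 injured groups against NI (horizontal) for the 94 other genes of the 9 pathway lists (vertical); each point is a gene and each bar the median of its list. Stat3, the 1 gene that passed the call, lies at 1.19, and the list medians lie between -0.61 for the insulin-like growth factors and 0.41 for the CSF1 receptor list.

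By list, the counts at an unadjusted p under 0.05 for the mean of the injured groups were 4 of 12 insulin-like growth factor genes, 2 of 13 in the CNTF and gp130 family, 2 of 12 in the EGF family, 2 of 7 neurotrophin genes, 1 of 10 in the VEGF family and 1 of 7 in the CSF1 receptor list. There were 0 of 8 in the GDNF family, 0 of 19 in the TGF-beta list and 0 of 6 in the PDGF family. The insulin-like growth factor list had the lowest median log2 fold change (-0.61), beside -0.03 for all genes. Its leading gene by level was Igf1r and the next was Igfbp5, a binding protein of IGF-1, at 15.3 to 64.3 in injured libraries and 43.3 to 79.5 in NI (log2 fold change -0.88, adjusted p = 0.226).

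The genes whose levels ran most like each ligand over the 12 libraries were found among 9356 genes with a mean of at least 10, and are given as a description, since the libraries share groups and cell content. For Csf1 they were C4b, a complement gene (Pearson's r = 0.93), Stat3 (0.92) and Serpina3m, a protease inhibitor gene (0.91), but the rank correlations of these 3 were only 0.56, 0.57 and 0.48. For Igf1 they were Cp, the ceruloplasmin gene (0.99), Crispld2 (0.99) and Tgfbi, a matrix protein (0.98), and for Il34 they were Ptges (0.98), Pdgfrl (0.97) and Lrrc17 (0.97). For Vegfa they were Dmd, the dystrophin gene (0.96), Camk2n1 (0.96) and Acsl3 (0.95), for Hbegf Ddo (0.96), Fmn2 (0.93) and Mro (0.91), and for Pdgfa Gorasp2 (0.90), Ide (0.87) and Tmem192 (0.85). Bdnf and Tgfb1 were below the minimum level for this comparison.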

How the data were processed

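The eGFP+ cells of 12 libraries in 5 groups, assigned by their deposited labels, were compared. What the authors deposited is a signal per gene, namely HTSeq 0.5.4p3 counts of TopHat2 2.0.9 alignments on mm10 (GRCm38), without genes of low count and scaled to library size in edgeR 3.3.6. The gene-counting mode and strand setting are not given in the sources used here. Every value divided by the worth of 1 read gave a whole number (100% of values within 1e-06), so that reads could be recovered for the count tests. Depth was 8270643 to 15562378 reads per library.

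Log2(normalized count + 1) was fitted by limma-trend (limma 3.58.1, R 4.3.3), with all libraries and 1 term per group, for the 16388 genes whose mean reached 0.5 in some group. P-values were adjusted over all of these genes after Benjamini and Hochberg, and 95% intervals come from the moderated fit. The ligands, the pathway and marker lists and the tests were chosen with earlier results of these data known. Statistics are given where a log2 fold change was at least 1 in size or the unadjusted p was under 0.05, and for listed genes that were called or among the 3 of highest mean, of which some are named. Alternatives were edgeR 4.0.16 (quasi-likelihood with TMM, and likelihood ratio tests on the implied library sizes), DESeq2 1.42.0, other pseudocounts, filters and scalings, weights by array quality, the replicate number as a block, marker sums as covariates and each library left out. In simulated data, unchanged genes made up more of the likelihood ratio test and DESeq2 calls than the adjusted threshold of 0.05 allows. With limma and the quasi-likelihood test, the share of unchanged genes among the calls was at most 5.88% and 7.23% in the comparisons simulated. The simulated counts held no differences in cell content between libraries, so these shares cannot show the error rate in the real libraries. Gene positions are those of GENCODE M21, and promoter windows, found for 6 of the 8 ligands, those of RefSeq GRCm38.p6. Correlated genes were sought among those with a mean of at least 10.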

Additional observations from a re-analysis of the deposited data

How the results depend on the processing

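The alternatives were followed for 34 fold changes, namely those of the ligands given with an SE, Stat3 for the mean of the injured groups, and Ngfr, Egf, Igfbp3 and Ptprz1 in single groups. Of these, 28 kept their direction in every alternative run, and 924 of the 998 alternative values also kept their side of the threshold. Only Csf1 and Stat3, for the mean of the injured groups, had passed the call, so keeping a side mostly meant staying uncalled. The alternative of adjusted p alone reuses the main fit and cannot change a fold change. Against 0 ligands called in each injured group, and 1 for the mean of the injured groups, other settings gave the following counts, each with the share of all genes called. Array quality weights called 1 in HS 1 week (7.73%), 1 in HS 2 weeks (0.464%), 1 in FT 1 week (5.66%), 3 in FT 2 weeks (8.83%) and 3 for the mean (7.32%). The microglia and macrophage sum as a covariate gave 1 in HS 1 week (0.72%), 1 in HS 2 weeks (1.36%), 1 in FT 2 weeks (1.11%) and 2 for the mean (4.5%). The pericyte and fibroblast sum gave 1 in HS 1 week (1.52%), 1 in HS 2 weeks (0.445%) and 2 for the mean (2.53%). The likelihood ratio test gave 1 in HS 1 week (0.433%), 1 in HS 2 weeks (0.488%) and 1 in FT 2 weeks (1.71%), and DESeq2 gave 1 in HS 1 week (0.513%), 1 in HS 2 weeks (0.69%) and 1 in FT 2 weeks (2.03%). Of the alternatives added after the data were seen, both sums together gave 1 in HS 1 week (1.79%), and the astrocyte sum gave 1 in HS 1 week (0.287%), 1 in HS 2 weeks (0.354%), 1 in FT 1 week (2.55%) and 2 for the mean (2.22%). Fitted on the compared groups alone, 4 rather than 0 were called in FT 2 weeks against FT 1 week (9.42%). Leaving out 1 library gave 0 to 1 in HS 2 weeks (1 without NI replicate 1, 0.22%), 0 to 2 in FT 2 weeks (2 without NI replicate 1, 2.78%) and 0 to 1 for the mean (0 without NI replicate 2, 0.0061%, or NI replicate 3, 0.0122%). With both sums as covariates Igf1 turned to -0.13 in HS 2 weeks against NI, -0.27 in FT 2 weeks against NI, -0.13 in FT 2 weeks against HS 2 weeks, -0.30 in HS 2 weeks against HS 1 week and -0.24 in FT 2 weeks against FT 1 week. With the pericyte and fibroblast sum alone it turned to -0.14 in FT 2 weeks against HS 2 weeks and -0.17 in FT 2 weeks against FT 1 week, and the Il34 interaction turned to -0.031 with the microglia and macrophage sum. The cause was not tested. Over its 29 alternatives the Csf1 change for the mean of the injured groups ranged between 1.10 and 1.49, with adjusted p between 2.86e-06 and 0.134. Whether replicate numbers pair the samples is not settled by these values. Same-numbered pairs correlated between -0.48 and 0.72, with 5 of 15 above 0.1. Of 11 numbered libraries, 6 correlated best with their own number. The replicate block changed no count of ligands called (Csf1 1.31, adjusted p = 0.0170). It raised the count of all genes called for the mean of the injured groups from 48 to 78. Rescaling to the same total put the median of all genes between -0.27 and -0.13 against NI. Depth limits Tgfb1 and Bdnf, which had as few as 1 and 10 reads in a library.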
